A study of Mus musculus with 6 samples.

Results

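Mouse cells labelled as nucleus pulposus and knockout for Chsy3 were compared with such cells labelled as heterozygous, across all autosomal genes with enough counts. Of 46095 gene symbols with counts, 40457 lie on autosomes, and 15125 of these passed the filter on low counts and were tested. A further 556 tested genes on the sex chromosomes or the mitochondrial genome and 380 tested genes without a placed chromosome were left out of the comparison. The study sequenced total RNA from primary cultures of 3 Chsy3 genotypes, namely wild type, heterozygous and knockout, with 2 libraries each. Every culture is labelled as male nucleus pulposus from mice of 8 weeks, digested with collagenase, grown with fetal bovine serum and used at passage 2. The title of the series speaks of a knockdown, whereas the labels of the libraries give genotypes, and the sources used here do not say which portion of Chsy3 was altered. Whether both libraries of a genotype stem from separate animals or cultures is not labelled, so every p-value rests on the spread between these samples alone, and this spread may be technical.

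The nucleus pulposus is the gel-like core of the intervertebral disc, and its cells descend from the notochord. These cells are known for a matrix rich in proteoglycans, whose chondroitin sulfate chains bind water and let the disc bear load. Chsy3 makes a synthase of chondroitin sulfate, which lengthens the chain on a core protein by adding its alternating sugars, and its relatives Chsy1, Chpf and Chpf2 take part in the same step. In culture, disc cells are also known to take on fibroblast features, with type I and type III collagen and contractile proteins.

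Chsy3 itself (chromosome 18, 59175340 to 59411336, GRCm38) had 118 and 76 counts in the knockout libraries, 167 and 197 in the heterozygous and 284 and 284 in the wild-type libraries. Levels in CPM are counts scaled by library size times the scaling factor of the test. On this scale Chsy3 was at 3.58 and 2.23 in knockout, 5.79 and 6.196 in heterozygous and 8.35 and 8.36 in wild type. The order followed the labelled gene dose with no overlap between genotypes, and transcripts were still counted in both knockout libraries. The log2 difference, knockout minus heterozygous, was -1.05 ± 0.21 (standard error), a 2.07-fold lower level with an adjusted p of 7.00e-05 in edgeR's quasi-likelihood test with Benjamini-Hochberg adjustment over all genes tested. All differences below are log2 values in this direction, given with the standard error, and a gene is said to have risen or fallen only where its adjusted p was under 0.05.

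Library totals lay between 29622117 and 33355685 counts in the 4 knockout and heterozygous libraries, and log2 levels correlated across genes at 0.987 to 0.989 within a genotype and at 0.968 to 0.969 between the genotypes. Of 21 nucleus pulposus and notochord markers, 14 had enough counts to test, and the list summed to 1999.9 and 2025 CPM in knockout against 1677 and 1659 CPM in heterozygous. Much of this sum was Lgals3, which is also abundant in macrophages, at 1008 and 989 CPM in knockout against 383 and 387 CPM in heterozygous. Acan, T, Shh and Foxa2 had 0 counts in all 4 libraries, Krt8 had 4 to 7 and Krt18 had 1 or 2, whereas Pax1, a factor of the embryonic disc, was counted in every library (966 and 992 counts in knockout and 1975 and 1992 in heterozygous), as was Cdh2, N-cadherin (1688 and 1715 counts in knockout and 1644 and 1840 in heterozygous). The markers of macrophages had a summed level of 18624 and 18456 CPM in knockout against 19020 and 18902 CPM in heterozygous. Lyz2 alone was at 7039 and 7010 CPM in knockout against 8845 and 8845 CPM in heterozygous, whereas 14 of the 21 tested macrophage markers rose and 3 fell. In bulk RNA, fewer cells of a type and less RNA per cell cannot be told apart. On the Y chromosome, Ddx3y, Eif2s3y, Kdm5d and Uty had 0 counts in both heterozygous libraries, although every library is labelled male. Ddx3y stood at 31.0 ± 0.9998 CPM (SD, n = 2) in knockout, at least 312-fold above the limit that a count of 0 allows, which was taken as 3 counts per library. The X-linked Xist stood at 652 ± 2.004 CPM in knockout and 1076 ± 6.02 CPM in heterozygous (SD, n = 2). The wild-type libraries were near knockout, with Ddx3y at 27.3 and 21.5 CPM and Xist at 664 and 654 CPM. Knockout and heterozygous cells therefore differed in these sex-linked genes as well as in genotype, and for every autosomal difference below the 2 cannot be told apart.

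Of the 15125 autosomal genes, 5670 (37.5%) passed the threshold, 2927 (19.4%) higher and 2743 (18.1%) lower in knockout, and the count of every gene list below stands beside these shares. The higher and lower calls were about balanced, and the median difference over all genes was 0.01 with quartiles at -0.23 and 0.23. Most called genes differed by little: 3884 of the 5670, or 68.5%, differed by less than 1.5-fold, and the median size of a called difference was 0.39. At least 2-fold differences were counted for 382 genes (2.53%) higher and 554 genes (3.66%) lower, 6.19% in all. In 9977 genes (66.0%) the knockout and heterozygous libraries did not overlap, which held for 5653 of the 5670 called genes. The share of called genes was larger at higher levels, from 14.8% in the lowest quartile of genes by mean level to 59.5% in the highest quartile, whereas the share with at least a 2-fold called difference went from 13.5% to 1.67%. Among protein-coding genes 41.7% were called, among long noncoding RNAs 10.6% and among pseudogenes 13.2%. With library totals in place of the scaling factors of the test, the median difference moved by 0.06 and the split became 3949 higher against 2142 lower, so that the share of higher calls went from 51.6% to 64.8%.

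**Figure D1:**
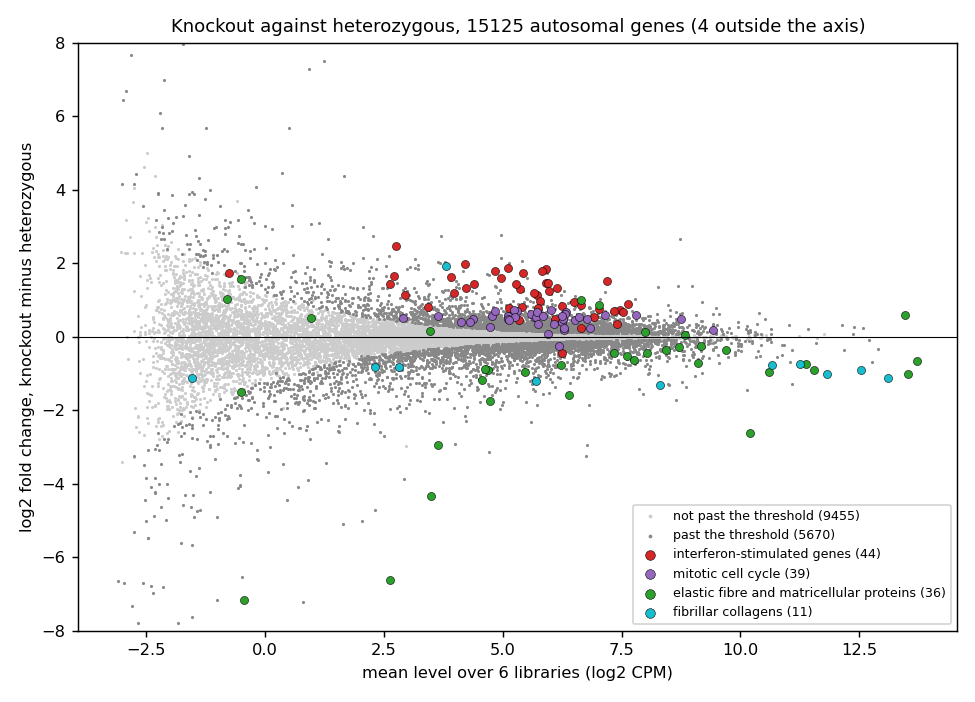
Log2 fold change, knockout minus heterozygous, against the mean log2 CPM over the 6 libraries for 15125 autosomal genes (points), grey by whether they passed the threshold, with 4 gene lists coloured. The interferon-stimulated and mitotic genes lie above 0 with 1 exception each, and the elastic fibre, matricellular and fibrillar collagen genes lie mostly below 0.

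The largest increases among genes of at least 3 log2 CPM included Sfrp4, Gjb2 and Gpnmb. Sfrp4, a secreted Wnt-binding protein, was at 103 and 100.3 CPM in the knockout libraries and 14.6 and 15.2 CPM in the heterozygous (2.77 ± 0.07, 6.80-fold). Gjb2, a gap junction connexin, was at 9.59 and 11.96 CPM in knockout and 2.01 and 1.23 CPM in heterozygous (2.75 ± 0.15). Gpnmb, a transmembrane glycoprotein abundant in macrophages, was at 1499 and 1496 CPM against 236 and 242 CPM (2.65 ± 0.03). In all 3 genes both knockout libraries lay far above both heterozygous ones, and the wild-type libraries, at 20.4 and 19.4 CPM for Sfrp4 and 213 and 219 CPM for Gpnmb, were closer to the heterozygous level in these 2 genes. For Gjb2 the wild-type libraries, at 126 and 125 CPM, were far above both other genotypes. Acod1, which makes itaconate in activated macrophages, was at 17.7 and 16.7 CPM in knockout against 4.37 and 3.59 CPM in heterozygous (2.11 ± 0.15). Aqp1, a water channel, was at 131 and 133 CPM in knockout against 31.1 and 32.4 CPM in heterozygous (2.05 ± 0.06). Others among the largest 14 were Mndal and Pyhin1 of the Ifi200 family (2.15 ± 0.08 and 2.05 ± 0.13), the class I-like H2-T24 (2.01 ± 0.07), the alkaline phosphatase Alpl (2.003 ± 0.12), the antiviral Rsad2 (1.98 ± 0.10), the apolipoprotein L gene Apol9b (1.96 ± 0.14) and the type II collagen gene Col2a1 (1.92 ± 0.12). The highest adjusted p among these named genes was 2.17e-15 in edgeR's quasi-likelihood test.

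The largest decreases included Eln, Postn and Aspn, which encode proteins of the extracellular matrix. Eln, elastin, was at 2.85 and 1.29 CPM in the knockout libraries and 40.8 and 42.5 CPM in the heterozygous (-4.34 ± 0.18, 20.2-fold lower), and the difference was -5.01 without knockout replicate 1 and -3.87 without knockout replicate 2. Postn, periostin, a matricellular protein of tendon and ligament, was at 507 and 509.8 CPM in knockout against 3125 and 3099 CPM in heterozygous (-2.61 ± 0.02). Aspn, the small leucine-rich proteoglycan asporin, was at 3.91 and 5.45 CPM in knockout against 35.4 and 36.2 CPM in heterozygous (-2.93 ± 0.12). All 4 knockout values of Eln and Postn were also below the wild-type libraries, at 18.5 and 16.4 CPM and 1049.7 and 1044 CPM. Penk, proenkephalin, was at 34.8 and 35.9 CPM in knockout against 336 and 336 CPM in heterozygous (-3.25 ± 0.04). Col8a2, a short-chain network collagen, was at 8.89 and 8.65 CPM in knockout against 78.96 and 75.9 CPM in heterozygous (-3.14 ± 0.08). Mfap4, a microfibril-associated protein, was at 3.49 and 3.64 CPM in knockout against 26.6 and 28.3 CPM in heterozygous (-2.94 ± 0.13). These were large drops from heterozygous levels that both heterozygous libraries shared. H19, an imprinted long noncoding RNA, was at 28.005 and 33.1 CPM in knockout against 226 and 241 CPM in heterozygous (-2.93 ± 0.05). Also among the largest 14 were the imprinted Mest (-2.17 ± 0.10), the fibronectin-domain gene Fndc1 (-2.33 ± 0.07), the leucine-rich repeat gene Lrrn3 (-2.32 ± 0.11), P-cadherin Cdh3 (-2.31 ± 0.11), Sertad4 (-2.06 ± 0.14), the patterning gene Hoxd10 (-2.01 ± 0.14) and the VPS10-family receptor Sorcs2 (-1.97 ± 0.08). No adjusted p among these 14 exceeded 4.05e-14.

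**Figure D2:**
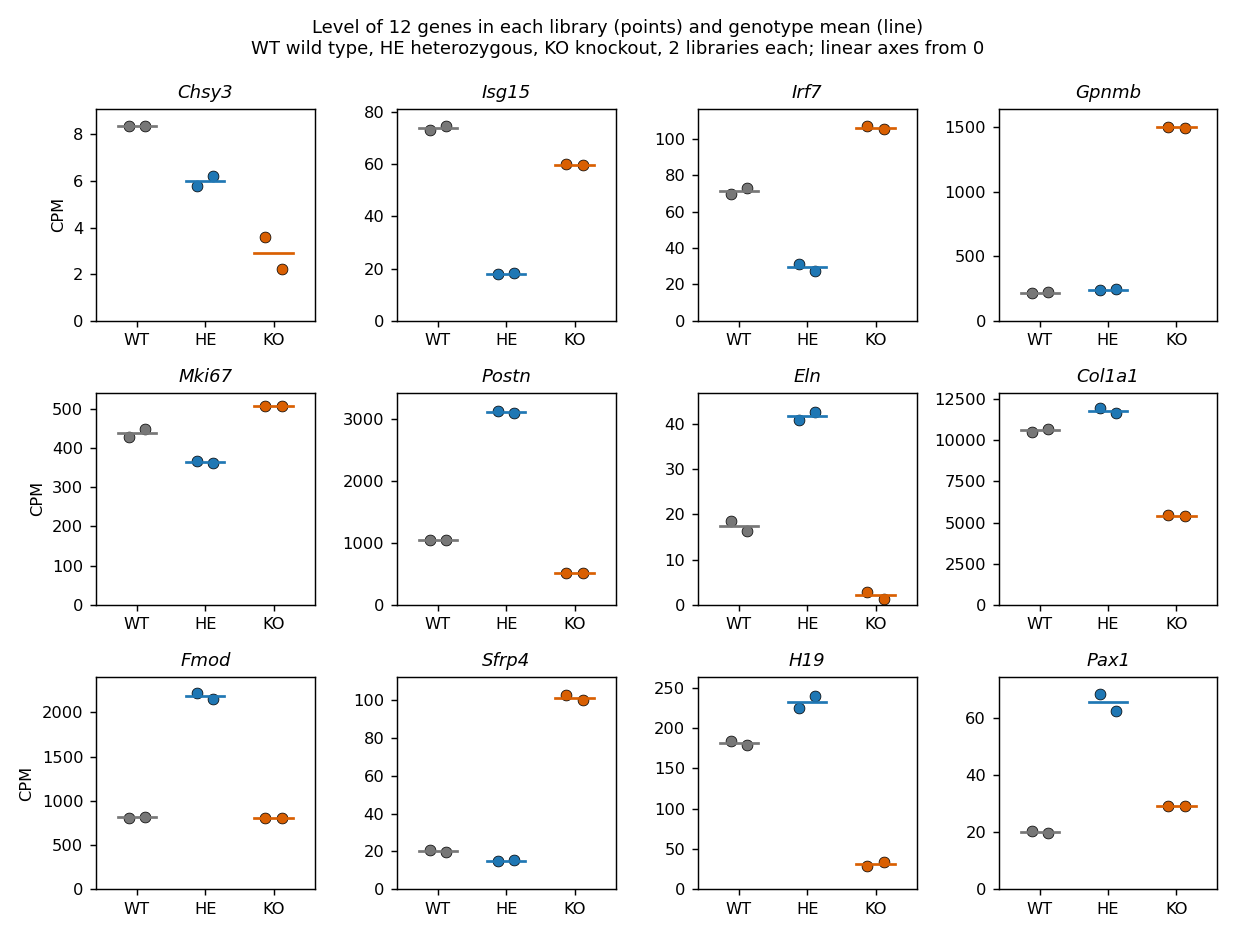
CPM of 12 genes (linear axes from 0) in each of the 6 libraries (points) with the mean of each genotype (lines). Knockout and heterozygous points do not overlap in any panel, and the wild-type points lie between them for Irf7 and Postn and above both for Isg15.

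Interferon-stimulated genes, which cells switch on to resist viruses, were higher in knockout almost without exception. Of the 44 tested, 43 rose against 19.4% of all genes, 25 of them at least 2-fold against 2.53%, and the list's median difference was 1.18 against 0.01 over all genes. In all 44 the knockout and heterozygous libraries did not overlap, against 66.0% of all genes and 99.7% of all called genes, so this adds little to the calls. The summed level was 3819 and 3794 CPM in knockout, 2037 and 2002 CPM in heterozygous and 3123 and 3137 CPM in wild type, so that the wild type lay between the other genotypes. The list's median against wild type was 0.28 for knockout and -0.83 for heterozygous, in comparisons that share these libraries. The regulators were among the genes that rose: Irf7, which switches on interferon genes, was at 107 and 105 CPM in knockout against 31.3 and 27.3 CPM in heterozygous (1.86 ± 0.06). Irf9, the DNA-binding subunit of the factor that type I interferon activates, was at 81.7 and 73.3 CPM in knockout against 55.6 and 56.3 CPM in heterozygous (0.47 ± 0.06). The difference was thus smaller for Irf9 than for Irf7. Among effectors, Isg15, a ubiquitin-like modifier, was at 60.04 and 59.5 CPM in knockout against 17.7 and 18.3 CPM in heterozygous (1.73 ± 0.07). Oasl2, a relative of the oligoadenylate synthetases, was at 233 and 223 CPM in knockout against 82.3 and 76.8 CPM in heterozygous (1.52 ± 0.04). Zbp1, a sensor of unusual nucleic acid, was at 56.1 and 52.9 CPM in knockout against 15.5 and 14.2 CPM in heterozygous (1.88 ± 0.08). Sensors of double-stranded RNA rose as well, with Ddx58 at 0.75 ± 0.04 and Ifih1 at 0.97 ± 0.06. Ifi27 was the single gene of the list that fell, at 67.9 and 68.4 CPM in knockout against 88.9 and 94.8 CPM in heterozygous (-0.43 ± 0.06).

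The promoters of these genes are shown because the factors that act downstream of interferon are known to bind a repeated GAAA element. In RefSeq on GRCm38.p6, 32 of the 44 genes matched a promoter entry, and the pattern of GAAA, any 2 bases (NN) and GAAA was searched on both strands in the 250 bases before the start. It was found in 16 of 37 promoters of the list, or 43.2%, against 2.98% of all 32851 promoters. Overlapping matches in a promoter are joined in the capitals, which mark the pattern. The sequences are Oas3 (chr5:120777660-120777909, minus strand), Bst2 (chr8:71537473-71537722, minus strand) and Isg15 (chr4:156200819-156201068, minus strand), each written in the direction of transcription. A match describes letters in this window and is not a measured binding site. The genes shown were chosen among those with a match. Irf7, Irf9, Oasl2, Ddx58 and Ifih1, which also rose, had none, and the relation of the pattern to the differences was not tested.
Oas3: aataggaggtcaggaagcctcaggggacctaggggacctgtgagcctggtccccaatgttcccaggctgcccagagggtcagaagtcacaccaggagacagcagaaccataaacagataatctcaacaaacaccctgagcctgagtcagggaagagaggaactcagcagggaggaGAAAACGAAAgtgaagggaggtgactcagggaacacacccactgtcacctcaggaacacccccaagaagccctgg
Bst2: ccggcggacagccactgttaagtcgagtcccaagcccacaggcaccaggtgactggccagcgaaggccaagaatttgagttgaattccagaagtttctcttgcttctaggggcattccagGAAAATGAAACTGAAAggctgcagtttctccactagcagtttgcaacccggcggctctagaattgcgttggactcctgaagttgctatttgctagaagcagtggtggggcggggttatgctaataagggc
Isg15: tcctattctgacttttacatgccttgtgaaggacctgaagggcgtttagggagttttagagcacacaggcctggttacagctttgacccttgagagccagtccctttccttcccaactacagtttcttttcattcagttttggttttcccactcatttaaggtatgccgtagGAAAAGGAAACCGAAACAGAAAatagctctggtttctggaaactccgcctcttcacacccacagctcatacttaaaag
Oas3, a synthetase of the antiviral messenger that activates RNase L, was at 101 and 105 CPM in knockout against 29.7 and 29.9 CPM in heterozygous (1.79 ± 0.06). Bst2, tetherin, which holds budding virus at the cell surface, was at 251 and 242 CPM in knockout against 135 and 128 CPM in heterozygous (0.90 ± 0.04). Both genes, like Isg15, had their knockout and heterozygous libraries fully apart.

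The Ifi200 cluster, interferon-inducible genes related to DNA sensors, held 9 tested genes, of which 8 rose and 1 fell, with a median of 1.68. Mndal was at 56.98 and 53.4 CPM in knockout against 12.5 and 12.3 CPM in heterozygous, and Pyhin1 at 24.6 and 29.4 CPM in knockout against 6.48 and 6.57 CPM in heterozygous. Pydc3 showed the largest increase of the cluster, at 4.04 and 4.25 CPM in knockout against 0.347 and 0.660 CPM in heterozygous (3.02 ± 0.38). Ifi202b went the other way, with 0 counts in both knockout libraries and 1022 and 1118 counts in the heterozygous ones. Because members of the cluster are close copies, reads could be shared between them, and their separate values are uncertain to that extent. Antigen presentation, by which cells display peptides, had 10 of 14 tested genes higher and 0 lower, with a median of 0.83. Tap1, the peptide transporter, was at 2.79 and 1.76 CPM in knockout against 0.347 and 0.503 CPM in heterozygous (2.40 ± 0.48). B2m, the light chain of class I molecules, was at 1834 and 1776 CPM in knockout against 1148 and 1163 CPM in heterozygous (0.64 ± 0.02). H2-K1, a classical class I gene, was at 126 and 119 CPM in knockout against 57.6 and 55.2 CPM in heterozygous (1.12 ± 0.06). Nlrc5, an activator of class I genes, was at 63.5 and 60.95 CPM in knockout against 34.1 and 36.01 CPM in heterozygous (0.83 ± 0.07). Psmb10, a subunit of the immunoproteasome, was at 41.3 and 37.7 CPM in knockout against 21.6 and 19.7 CPM in heterozygous (0.94 ± 0.08). Both groups thus shared the direction of the interferon-stimulated genes, while class I genes are near copies whose counts carry the same uncertainty.

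Chemokines, which attract leukocytes, had 11 of 20 tested genes higher and 2 lower, with a median of 0.66. Ccl9 was at 236 and 238 CPM in knockout against 100 and 106 CPM in heterozygous (1.204 ± 0.04), and Ccl5, an attractant of T cells, at 4.58 and 4.28 CPM in knockout against 0.555 and 0.189 CPM in heterozygous (3.59 ± 0.39; 4.52 without heterozygous replicate 1 and 2.99 without heterozygous replicate 2). Ccl2, a monocyte attractant, was at 137 and 138 CPM in knockout against 58.2 and 58.7 CPM in heterozygous (1.23 ± 0.05). Cx3cl1 (18.6 and 15.5 CPM in knockout against 48.97 and 43.4 CPM in heterozygous) and Ccl8 fell. Their decreases were 1.44 and 0.82 on the log2 scale, against the direction of the chemokines that rose. Of 24 inflammatory cytokines and NF-kB targets, 12 rose and 4 fell, with a median of 0.36. Il6, a cytokine of the acute phase, was at 3.13 and 4.90 CPM in knockout against 1.08 and 1.42 CPM in heterozygous (1.68 ± 0.30). Ptgs2, the inducible enzyme of prostaglandin synthesis, was at 59.04 and 61.6 CPM in knockout against 25.3 and 25.9 CPM in heterozygous (1.23 ± 0.07). Il33, Vcam1, Il1r1 and Hp fell, and Vcam1, an adhesion molecule for leukocytes, was at 81.7 and 77.2 CPM in knockout against 167 and 180.4 CPM in heterozygous (-1.13 ± 0.05). Complement genes were split, with 6 of 18 higher and 6 lower and a median of -0.03: the C1q chains C1qa (0.15 ± 0.02), C1qb (0.18 ± 0.02) and C1qc (0.21 ± 0.02) rose slightly, while C1s1 (-0.69 ± 0.04), C1ra (-0.42 ± 0.05) and the inhibitor Serping1 (-0.50 ± 0.03) fell.

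Macrophage markers moved with these immune genes only in part. Of 21 tested, 14 rose and 3 fell, with a median of 0.21 and no difference of at least 2-fold in either direction. Csf1r, the receptor for the macrophage growth factor, was at 1115 and 1126 CPM in knockout against 938 and 917 CPM in heterozygous (0.27 ± 0.02). Adgre1, the gene of the F4/80 antigen, was at 402 and 389.8 CPM in knockout against 516 and 519 CPM in heterozygous (-0.39 ± 0.03) and fell, as did Lyz2 (-0.33 ± 0.02) and Fcgr3 (-0.31 ± 0.04). Thus defining macrophage genes went both ways, and their part in the immune differences was not tested.

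Genes of the mitotic cell cycle were modestly higher in knockout. Of 39 tested, 37 rose against 19.4% of all genes and 1 fell against 18.1%, with a median of 0.52 and no difference of at least 2-fold. In all 39 the libraries did not overlap, against 66.0% of all genes and 99.7% of all called genes, so this adds little to the calls. The summed level was 3828 and 3879 CPM in knockout against 2893 and 2906 CPM in heterozygous, with wild type at 3572 and 3575 CPM. Mki67, a marker of cycling cells, was at 507 and 508 CPM in knockout against 366 and 361 CPM in heterozygous (0.48 ± 0.03). Top2a, which untangles DNA at mitosis, was at 266 and 269.6 CPM in knockout against 179.98 and 177 CPM in heterozygous (0.58 ± 0.03). Foxm1, a transcription factor of mitotic genes, was at 79.6 and 77.8 CPM in knockout against 45.5 and 49.1 CPM in heterozygous (0.73 ± 0.06). Mcm5, a subunit of the replicative helicase, was at 95.2 and 96.8 CPM in knockout against 63.1 and 62.3 CPM in heterozygous (0.61 ± 0.05). Genes of replication and of mitosis thus both rose. Cdc20, an activator of mitotic exit, fell (-0.26 ± 0.07), a call that was lost without knockout replicate 1 (adjusted p 0.236), and Cenpf, a kinetochore protein, did not pass (0.09 ± 0.06).

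Promoters of Top2a and Mki67 are shown for the CCAAT box, an element known from cell cycle promoters. Both were chosen among genes of the list that carry it. Cdc20 and Cenpf, which did not rise, carry it too, and its relation to the differences was not tested. Of 39 genes, 30 matched, and CCAAT was found on either strand in 26 of 32 promoters, or 81.2%, against 33.8% of all promoters of that length. The entries are Top2a (chr11:99024190-99024439, minus strand) and Mki67 (chr7:135716380-135716629, minus strand), from RefSeq on GRCm38.p6, with CCAAT or its reverse complement ATTGG in capitals.
Top2a: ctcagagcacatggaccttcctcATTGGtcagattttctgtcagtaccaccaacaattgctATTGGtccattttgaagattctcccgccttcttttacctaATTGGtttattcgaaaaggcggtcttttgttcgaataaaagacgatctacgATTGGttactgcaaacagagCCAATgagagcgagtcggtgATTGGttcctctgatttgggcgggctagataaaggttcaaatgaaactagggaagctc
Mki67: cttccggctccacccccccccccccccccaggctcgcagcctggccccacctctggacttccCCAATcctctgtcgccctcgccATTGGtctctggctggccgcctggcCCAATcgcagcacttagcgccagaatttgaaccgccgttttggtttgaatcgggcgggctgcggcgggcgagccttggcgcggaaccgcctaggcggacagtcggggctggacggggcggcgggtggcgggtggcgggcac
Targets of p53 and inhibitors of cyclin-dependent kinases were split, with 7 of 25 higher and 9 lower and a median of 0.04 that became -0.00280 without knockout replicate 1. Cdkn1a, the p21 inhibitor gene, was at 284 and 282 CPM in knockout against 243 and 247 CPM in heterozygous (0.21 ± 0.03), while the imprinted inhibitor Cdkn1c was at 3.09 and 1.73 CPM in knockout against 12.3 and 13.6 CPM in heterozygous (-2.43 ± 0.22). Immediate early genes, which respond within minutes to stimulation, were 10 of 25 higher and 5 lower, with a median of 0.19. Dusp1, a phosphatase that damps kinase signals, was at 72.9 and 74.4 CPM in knockout against 45.8 and 44.1 CPM in heterozygous (0.71 ± 0.06). Fos, at -0.19, did not pass.

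Lysosomal genes had 23 of 32 tested members higher, against 19.4% of all genes, and 3 lower, with a median of 0.27 and no difference of at least 2-fold. Their summed level was 27664 and 27015 CPM in knockout against 22370 and 22366 CPM in heterozygous. Ctsd, a lysosomal aspartic protease, was at 5562 and 5316 CPM in knockout against 4391 and 4350.1 CPM in heterozygous (0.32 ± 0.02). Lamp1, a glycoprotein of the lysosomal membrane, was at 1581 and 1590.0 CPM in knockout against 1243 and 1273 CPM in heterozygous (0.33 ± 0.02). Ctss, a cysteine protease abundant in macrophages, was at 877 and 886 CPM in knockout against 573 and 584 CPM in heterozygous (0.61 ± 0.02). Each of the 3 was higher in both knockout libraries than in either heterozygous one. Ctsk, a collagen-degrading protease, fell (-0.32 ± 0.07), as did Ctsf (-0.53 ± 0.07) and Gaa (-0.21 ± 0.03). Among enzymes that break down glycosaminoglycan chains, 8 of 16 rose and 2 fell, with a median of 0.13. Hexa, a subunit of the hexosaminidase that trims chondroitin and dermatan sulfate, was at 512 and 498 CPM in knockout against 387 and 373 CPM in heterozygous (0.41 ± 0.03). Gusb, the glucuronidase, was at 433 and 436 CPM in knockout against 320.3 and 314 CPM in heterozygous (0.46 ± 0.03). Arsb, a sulfatase acting on the same chains, was at 121 and 126 CPM in knockout against 110.3 and 108 CPM in heterozygous (0.18 ± 0.04). Sgsh (-0.23 ± 0.05), which acts on heparan sulfate, and Cemip (-0.12 ± 0.02), which takes part in hyaluronan breakdown, fell.

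Promoters of Ctsd and Lamp1 are shown for CACGTG, the core of the element that the lysosomal regulator TFEB is known to bind. Both were chosen among genes of the list that carry it. Ctsf and Gaa, which fell, carry it too, while Ctss, Grn and Psap, which rose, do not. Its relation to the differences was not tested. Of 32 genes, 25 matched, and CACGTG, which reads the same on both strands, was found in 8 of 29 promoters, or 27.6%, against 6.02% of all. The entries are Ctsd (chr7:142387828-142388077, minus strand) and Lamp1 (chr8:13158911-13159160, plus strand), from RefSeq on GRCm38.p6, with the pattern in capitals.
Ctsd: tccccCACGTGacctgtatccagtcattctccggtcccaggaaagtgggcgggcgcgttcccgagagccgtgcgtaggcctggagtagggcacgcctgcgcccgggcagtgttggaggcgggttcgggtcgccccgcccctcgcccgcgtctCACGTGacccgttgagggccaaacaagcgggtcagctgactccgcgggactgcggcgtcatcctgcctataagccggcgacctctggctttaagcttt
Lamp1: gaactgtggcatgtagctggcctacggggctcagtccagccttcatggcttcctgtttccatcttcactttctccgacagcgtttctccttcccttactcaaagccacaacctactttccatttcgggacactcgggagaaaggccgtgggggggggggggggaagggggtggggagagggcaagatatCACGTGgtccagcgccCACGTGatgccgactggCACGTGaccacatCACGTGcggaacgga
Tfeb itself was at 20.2 and 15.1 CPM in knockout against 16.6 and 15.7 CPM in heterozygous and did not pass (0.13). Genes of cholesterol synthesis and uptake had 12 of 25 higher and 1 lower, with a median of 0.18. Fdps, which makes farnesyl diphosphate, was at 109.9 and 116 CPM in knockout against 89.3 and 84.95 CPM in heterozygous (0.38 ± 0.05), and Abcg1, a cholesterol exporter, at 54.7 and 54.7 CPM in knockout against 29.3 and 23.4 CPM in heterozygous (1.06 ± 0.08).

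**Figure D3:**
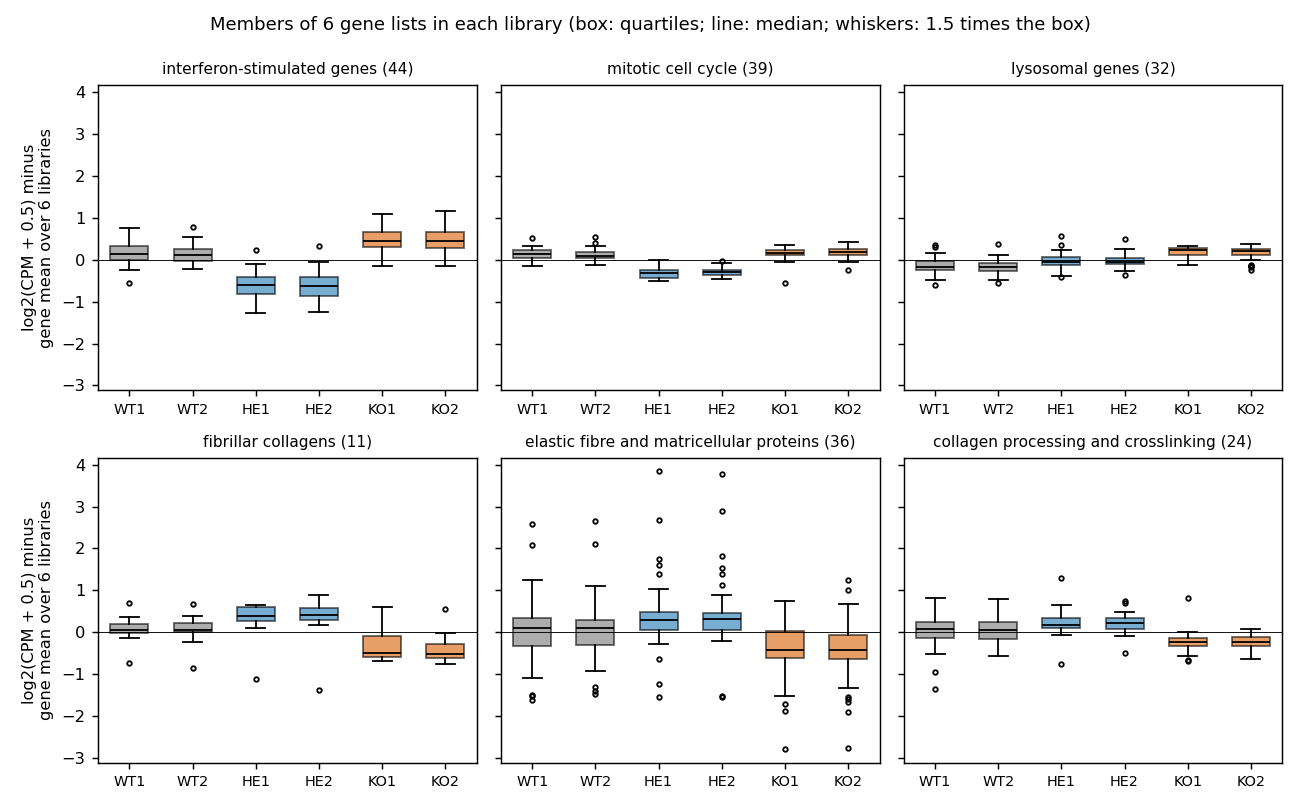
For the tested members of 6 gene lists, log2(CPM + 0.5) in each library minus the gene's mean over the 6 libraries (boxes are quartiles, lines medians, points members beyond the whiskers). The boxes of the 2 libraries of a genotype sit at similar heights, with knockout above heterozygous in the upper row and below it in the lower row.

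The fibrillar collagens, the main structural proteins of connective tissue, had 9 of 11 tested genes lower in knockout, against 18.1% of all genes, and 1 higher, with a median of -0.90. Their summed level was 15334 and 15337 CPM in knockout against 30632 and 29845 CPM in heterozygous. Col1a1, type I collagen, was at 5448 and 5379.9 CPM in knockout against 11932 and 11666 CPM in heterozygous (-1.12 ± 0.02). Col3a1, type III collagen, was at 2565 and 2548 CPM in knockout against 5228 and 5102 CPM in heterozygous (-1.01 ± 0.02). Col5a1, which nucleates type I fibrils, was at 1102 and 1106 CPM in knockout against 1906 and 1837 CPM in heterozygous (-0.76 ± 0.02). In these 3 genes the knockout libraries were well below both heterozygous libraries. Col2a1, the collagen of cartilage, was the single increase, at 21.7 and 20.9 CPM in knockout against 6.17 and 5.13 CPM in heterozygous. Other collagens had 10 of 16 lower and 1 higher, with a median of -0.64. Col14a1, which lies on the surface of fibrils, was at 13.7 and 15.7 CPM in knockout against 53.3 and 53.7 CPM in heterozygous (-1.86 ± 0.08). Col12a1, of the same family, was at 1373 and 1377 CPM in knockout against 3401 and 3324 CPM in heterozygous (-1.29 ± 0.02). Col6a3, a chain of the pericellular collagen of many tissues, was at 241 and 245 CPM in knockout against 621 and 631 CPM in heterozygous (-1.37 ± 0.03). The increase was of Col10a1, the collagen of hypertrophic cartilage (1.08 ± 0.29), and this call was lost without knockout replicate 2 (adjusted p 0.164).

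Basement membrane genes had 10 of 16 lower and 4 higher, with a median of -0.49. Col4a1, the network-forming collagen, was at 312 and 300.4 CPM in knockout against 610.4 and 614 CPM in heterozygous (-1.0001 ± 0.03). Lama4, a laminin chain, was at 85.3 and 88.2 CPM in knockout against 185 and 182 CPM in heterozygous (-1.08 ± 0.04). Nid1, which links laminin and collagen networks, was at 479 and 477 CPM in knockout against 719 and 711 CPM in heterozygous (-0.58 ± 0.02), whereas its relative Nid2 rose, at 84.1 and 78.02 CPM in knockout against 55.5 and 48.5 CPM in heterozygous (0.64 ± 0.06). Enzymes and chaperones of collagen processing and crosslinking had 19 of 24 lower and 1 higher, with a median of -0.43. Lox, the crosslinking lysyl oxidase, was at 5552 and 5534 CPM in knockout against 9003 and 8968 CPM in heterozygous (-0.70 ± 0.02). Plod2, a lysyl hydroxylase, was at 172 and 176 CPM in knockout against 308 and 297 CPM in heterozygous (-0.80 ± 0.03). Serpinh1, the collagen chaperone, was at 839 and 816 CPM in knockout against 1079 and 1098 CPM in heterozygous (-0.40 ± 0.02). All of these were lower in both knockout libraries, and the 1 increase, of Adamts14 (0.50 ± 0.18), was lost without knockout replicate 2 or heterozygous replicate 1 (adjusted p 0.233 and 0.210) and in DESeq2 (0.0609).

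Elastic fibre and matricellular proteins had 27 of 36 tested genes lower and 5 higher, with a median of -0.70, and 10 of the decreases were at least 2-fold against 3.66% of all genes. Fbn1, the core of microfibrils, was at 1027 and 1009 CPM in knockout against 1992 and 1966 CPM in heterozygous (-0.96 ± 0.02). Fn1, fibronectin, was at 10074 and 10020.2 CPM in knockout against 16196 and 15705 CPM in heterozygous (-0.67 ± 0.02). Sparc, a collagen-binding matricellular protein, was at 1987 and 1973 CPM in knockout against 3319 and 3327 CPM in heterozygous (-0.75 ± 0.02). These abundant transcripts fell less than Eln, Postn and Mfap4. Comp, a cartilage matrix protein, was at 87.3 and 80.4 CPM in knockout against 257 and 247 CPM in heterozygous (-1.59 ± 0.05). Spp1, osteopontin, rose (14399.9 and 14128 CPM in knockout against 9484 and 9612 CPM in heterozygous; 0.58 ± 0.01), as did Efemp1, a fibulin (197 and 208 CPM in knockout against 107 and 117 CPM in heterozygous; 0.85 ± 0.04).

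Proteoglycan core proteins, the carriers of the chains that Chsy3 helps to build, had 15 of 27 tested genes lower, against 18.1% of all genes, and 4 higher, with a median of -0.50. Without heterozygous replicate 2 the higher count was 2. Their summed level was 5501 and 5493 CPM in knockout, 8805 and 8595 CPM in heterozygous and 5470 and 5552 CPM in wild type, so that knockout and wild type were close. Dcn, decorin, a small leucine-rich proteoglycan with a chondroitin or dermatan sulfate chain, was at 201 and 199.96 CPM in knockout against 343 and 339.8 CPM in heterozygous (-0.77 ± 0.03). Fmod, fibromodulin, of the same family with keratan sulfate, was at 800.3 and 801 CPM in knockout against 2217 and 2152 CPM in heterozygous (-1.45 ± 0.02). Vcan, versican, a large chondroitin sulfate proteoglycan, was at 155 and 164 CPM in knockout against 210.4 and 216 CPM in heterozygous (-0.42 ± 0.04). Cspg4, a membrane chondroitin sulfate proteoglycan, was at 88.1 and 92.004 CPM in knockout against 123 and 116 CPM in heterozygous (-0.41 ± 0.04). Hspg2, perlecan, a heparan sulfate proteoglycan of basement membranes, was at 1594 and 1576 CPM in knockout against 2318 and 2189 CPM in heterozygous (-0.51 ± 0.02). Srgn, serglycin, the proteoglycan of leukocyte granules, rose, at 70.8 and 68.8 CPM in knockout against 53.99 and 51.99 CPM in heterozygous (0.40 ± 0.06), and so did Agrn, agrin, which also carries heparan sulfate (0.49 ± 0.05).

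Enzymes of chondroitin and dermatan sulfate synthesis, the family of Chsy3, were split, with 8 of 29 tested genes higher and 12 lower and a median of -0.12. Without knockout replicate 1 the higher count was 5. Among the enzymes that start and lengthen the chain, Csgalnact1, which adds its first galactosamine, was at 47.8 and 52.5 CPM in knockout against 109 and 111 CPM in heterozygous (-1.13 ± 0.05). Chsy1, the closest relative of Chsy3, was at 49.2 and 53.4 CPM in knockout against 69.1 and 73.6 CPM in heterozygous (-0.48 ± 0.06). Chpf, a polymerizing partner, was at 155 and 146 CPM in knockout against 215 and 204 CPM in heterozygous (-0.48 ± 0.04). These 3 genes fell together with Chsy3, whereas Chpf2, the other partner, rose, at 120.2 and 122 CPM in knockout against 72.9 and 80.2 CPM in heterozygous (0.66 ± 0.05). Among sulfating enzymes Chst11 rose (0.34 ± 0.07) and Chst12 fell (-0.32 ± 0.05), although both act on the same position of chondroitin. Ust, which sulfates uronic acid, was at 11.9 and 13.5 CPM in knockout against 19.2 and 18.1 CPM in heterozygous (-0.55 ± 0.12). Dse and Dsel, the epimerases that convert chondroitin to dermatan sulfate, fell by 0.24 and 0.49 on the log2 scale. Slc26a2, the sulfate transporter, was at 20.7 and 21.5 CPM in knockout against 28.5 and 26.1 CPM in heterozygous (-0.37 ± 0.09). In heparan sulfate synthesis and editing, 7 of 16 fell and 2 rose, with a median of -0.27, and Glce, the epimerase of this chain, was at 34.8 and 33.7 CPM in knockout against 49.8 and 52.4 CPM in heterozygous (-0.58 ± 0.07). In hyaluronan synthesis and binding, 3 of 10 fell and 2 rose, with a median of -0.10, so that 5 of 10 were called against 37.5% of all genes, and the 2 increases were near the 19.4% of all genes. Has2, a hyaluronan synthase, was at 14.02 and 14.4 CPM in knockout against 21.05 and 22.3 CPM in heterozygous (-0.61 ± 0.10), and Cd44, a hyaluronan receptor, at 408 and 404 CPM in knockout against 306 and 317 CPM in heterozygous (0.38 ± 0.03). Tnfaip6 fell (-0.72 ± 0.20), but not without knockout replicate 1 (adjusted p 0.157).

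Matrix metalloproteinases and their inhibitors had 15 of 20 lower and 3 higher, with a median of -0.28. The higher count was 1 without knockout replicate 2 or without heterozygous replicate 1. Mmp2, a gelatinase, was at 324 and 320.4 CPM in knockout against 432 and 426 CPM in heterozygous (-0.41 ± 0.03). Mmp14, its membrane-bound activator, was at 524 and 508 CPM in knockout against 619.9 and 625 CPM in heterozygous (-0.27 ± 0.02). Timp3, an inhibitor held in the matrix, was at 879 and 891 CPM in knockout against 1017 and 1007 CPM in heterozygous (-0.19 ± 0.02). Both enzymes and the inhibitor therefore fell, while Mmp12, the macrophage elastase, rose, at 19.6 and 18.7 CPM in knockout against 11.3 and 11.4 CPM in heterozygous (0.75 ± 0.12). ADAM and ADAMTS proteases had 12 of 23 lower and 1 higher, with a median of -0.25. Adamts5, an aggrecanase, was at 608 and 619 CPM in knockout against 896 and 882 CPM in heterozygous (-0.53 ± 0.02), and Adamts2, a procollagen peptidase, at 184 and 189 CPM in knockout against 294 and 287 CPM in heterozygous (-0.64 ± 0.03). The increase was of Adam8 (0.34 ± 0.03), and without heterozygous replicate 1 there were 2 increases, and 4 with library totals. Integrins, the receptors for matrix, had 9 of 19 lower and 5 higher, with a median of -0.29. Itga11, a collagen receptor subunit of fibroblasts, was at 178 and 178 CPM in knockout against 365 and 355 CPM in heterozygous (-1.02 ± 0.03), whereas Itga4, a subunit of leukocyte integrins, was at 89.5 and 89.2 CPM in knockout against 75.8 and 72.6 CPM in heterozygous (0.27 ± 0.05).

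In the Wnt pathway, which steers skeletal development, 21 of 36 tested genes fell, against 18.1% of all genes, and 5 rose, against 19.4%, with a median of -0.64. Of ligands, Wnt5a was at 24.7 and 23.1 CPM in knockout against 41.9 and 39.3 CPM in heterozygous (-0.77 ± 0.08). Of receptors, Fzd1 was at 60.1 and 54.01 CPM in knockout against 108 and 102 CPM in heterozygous (-0.88 ± 0.05), and the coreceptors Lrp5 (-0.76 ± 0.05) and Lrp6 (-0.79 ± 0.03) fell as well. Rspo3, a secreted amplifier of the pathway, was at 19.4 and 19.2 CPM in knockout against 66.2 and 65.9 CPM in heterozygous (-1.77 ± 0.07). In these genes, ligand, receptors and amplifier, the knockout libraries were below both heterozygous ones. Of the secreted antagonists, Sfrp1 fell, at 301 and 302 CPM in knockout against 752 and 734 CPM in heterozygous (-1.30 ± 0.03), while Sfrp4 and Sfrp2 (0.50 ± 0.04) rose.

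In the BMP pathway 15 of 28 fell and 4 rose, with a median of -0.29. Bmpr1a, a receptor, was at 93.8 and 94.3 CPM in knockout against 132 and 128 CPM in heterozygous (-0.47 ± 0.04), and Bmp4, a ligand, fell by 0.26 on the log2 scale. Id1 and Id3, targets of the pathway, fell (-0.32 ± 0.06 and -0.22 ± 0.04), while Id2 rose (0.38 ± 0.05). Grem1, a secreted antagonist, rose, at 126 and 134 CPM in knockout against 61.1 and 59.5 CPM in heterozygous (1.11 ± 0.06). In the TGF-beta pathway 12 of 25 fell and 6 rose, with a median of -0.06 that became 0.00526 with library totals. The ligand gene Tgfb3 fell (-0.44 ± 0.04) while Tgfb1 rose (0.33 ± 0.03), and the receptor gene Tgfbr2 was at 449 and 448 CPM in knockout against 631 and 639 CPM in heterozygous (-0.50 ± 0.03). Tgfbi, a matrix protein named for its induction by this factor, rose, at 441 and 442 CPM in knockout against 183 and 165 CPM in heterozygous (1.34 ± 0.03). Ligands and targets of this pathway therefore did not share a direction.

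The insulin-like growth factor (IGF) axis had 11 of 18 lower and 3 higher, with a median of -0.17. Igfbp3, a binding protein, was at 4.49 and 5.01 CPM in knockout against 19.004 and 18.2 CPM in heterozygous (-1.97 ± 0.15), and Igfbp5, of the same family, at 43.7 and 44.6 CPM in knockout against 29.2 and 27.7 CPM in heterozygous (0.64 ± 0.08). Igf1r, the receptor, was at 147 and 139.5 CPM in knockout against 204 and 201 CPM in heterozygous (-0.50 ± 0.04). Binding proteins thus went in opposite directions. Of fibroblast, platelet-derived and vascular growth factors and their receptors, 15 of 28 fell and 4 rose, with a median of -0.35. Pdgfra, a receptor of mesenchymal cells, was at 189 and 177 CPM in knockout against 289.8 and 300.3 CPM in heterozygous (-0.69 ± 0.04). Fgfr1 was at 113 and 119 CPM in knockout against 189 and 192 CPM in heterozygous (-0.71 ± 0.04), and Fgf7, a growth factor that acts on epithelial cells, rose, at 141 and 150.1 CPM in knockout against 109 and 106 CPM in heterozygous (0.44 ± 0.04). Hedgehog and Notch genes had 9 of 17 lower and 2 higher, with a median of -0.45, and the higher count was 1 without knockout replicate 1 or heterozygous replicate 1. Gas1, a hedgehog coreceptor, was at 209.6 and 209 CPM in knockout against 566 and 550.5 CPM in heterozygous (-1.41 ± 0.03), and Gli3, a transcription factor of the pathway, at 39.99 and 37.1 CPM in knockout against 61.9 and 60.01 CPM in heterozygous (-0.66 ± 0.07).

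Guidance cues were split, with 8 of 31 higher and 10 lower and a median of -0.01. Sema3c fell, at 51.6 and 51.8 CPM in knockout against 108 and 113 CPM in heterozygous (-1.10 ± 0.05), as did Sema3a, a repellent of axons (-1.47 ± 0.06). Of 11 endothelin and angiotensin genes, 3 rose and 4 fell, with a median of -0.12 that became 0.0265 with a stricter filter on low counts, and Ednra, an endothelin receptor, was at 5.76 and 5.37 CPM in knockout against 8.67 and 10.4 CPM in heterozygous (-0.78 ± 0.16). Targets of YAP and TAZ and mechanosensitive channels had 11 of 21 lower and 5 higher, with a median of -0.26. Cyr61, a target, was at 363 and 363 CPM in knockout against 536 and 519.6 CPM in heterozygous (-0.54 ± 0.03), and Ctgf, another target, did not pass (-0.02). Contractile genes of smooth muscle and myofibroblasts had 14 of 20 lower and 2 higher, with a median of -0.24. Acta2, smooth muscle actin, was at 1546 and 1531 CPM in knockout against 1801 and 1814 CPM in heterozygous (-0.23 ± 0.02), and Tagln, transgelin, at 423 and 405 CPM in knockout against 530.3 and 547 CPM in heterozygous (-0.38 ± 0.03). Decreases of contractile genes were thus small beside those of the collagens.

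Hypoxia and glycolysis genes had 17 of 31 lower and 5 higher, with a median of -0.13, and without knockout replicate 1 the higher count was 3. Hif1a, the oxygen-regulated factor, was at 461 and 472 CPM in knockout against 637 and 611 CPM in heterozygous (-0.42 ± 0.03). Slc2a1, a glucose transporter, was at 154 and 149.7 CPM in knockout against 232 and 235 CPM in heterozygous (-0.62 ± 0.03), whereas Pkm, a glycolytic enzyme, rose, at 2841 and 2856 CPM in knockout against 2482 and 2484 CPM in heterozygous (0.20 ± 0.02). Serine synthesis and amino acid stress genes were split, with 10 of 27 higher and 7 lower and a median of 0.09. Slc7a11, the cystine importer, was at 16.7 and 16.9 CPM in knockout against 9.57 and 7.64 CPM in heterozygous (0.97 ± 0.11), and Aldh1l2, a mitochondrial folate enzyme, at 34.5 and 35.1 CPM in knockout against 64.5 and 67.6 CPM in heterozygous (-0.92 ± 0.06). Cytosolic ribosomal proteins had 6 of 54 higher and 7 lower, with a median of 0.01, below the 37.5% called among all genes. These counts were 2 and 4 without knockout replicate 2, 3 and 4 without heterozygous replicate 1, and 14 and 4 with library totals. Nuclear subunits of oxidative phosphorylation had 10 of 49 higher and 0 lower, with a median of 0.07, and the higher count was 6 without heterozygous replicate 1 and 23 with library totals. With the scaling factors of the test, 20.4% of this list were called, all higher. This share lay near the 19.4% higher among all genes and below the 37.5% called. Atp5b, a catalytic subunit of ATP synthase, was at 618 and 618 CPM in knockout against 562 and 572 CPM in heterozygous (0.12 ± 0.02).

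Transcription factors that pattern the skeleton were more often lower than higher. Hox genes, which set position along the body, had 12 of 32 lower and 1 higher, with a median of -0.21, and 2 were higher without knockout replicate 1 or heterozygous replicate 2. Of the 12 decreases 6 were in the Hoxd cluster: Hoxd10 was at 4.46 and 5.34 CPM in knockout against 19.9 and 19.7 CPM in heterozygous, Hoxd9 at 4.70 and 4.95 CPM in knockout against 14.8 and 17.2 CPM in heterozygous (-1.73 ± 0.15) and Hoxd8 at 7.13 and 8.71 CPM in knockout against 21.4 and 21.9 CPM in heterozygous (-1.45 ± 0.13). Hoxc8, the increase, was at 20.2 and 21.3 CPM in knockout against 14.9 and 17.4 CPM in heterozygous (0.36 ± 0.10), and this call was lost without heterozygous replicate 1 (adjusted p 0.105). Skeletal lineage factors had 19 of 36 lower and 5 higher, with a median of -0.40. Sox9, which drives cartilage genes, was at 21.5 and 23.9 CPM in knockout against 56.8 and 58.2 CPM in heterozygous (-1.34 ± 0.08). Pax1, a factor of the embryonic disc, was at 29.3 and 29.1 CPM in knockout against 68.5 and 62.7 CPM in heterozygous (-1.17 ± 0.07). Scx, a factor of tendon, was at 1.49 and 2.35 CPM in knockout against 7.77 and 6.98 CPM in heterozygous (-1.94 ± 0.25), and Mkx, of tendon and annulus, at 5.22 and 4.19 CPM in knockout against 20.3 and 18.6 CPM in heterozygous (-2.05 ± 0.16). These factors of cartilage, disc and tendon were therefore lower in knockout than in heterozygous. The wild-type levels of Pax1, 20.4 and 19.8 CPM, and Sox9, 15.3 and 16.7 CPM, were below both other genotypes. Those of Mkx, 3.41 and 4.71 CPM, and Scx, 2.82 and 2.41 CPM, were nearer the knockout than the heterozygous level. Tbx18 rose, at 19.5 and 19.8 CPM in knockout against 8.60 and 11.4 CPM in heterozygous (0.97 ± 0.13), as did Foxc2 (1.26 ± 0.11). Of 16 imprinted growth regulators 10 fell and 1 rose, with a median of -0.68. Peg3 was at 6.61 and 5.63 CPM in knockout against 12.3 and 16.7 CPM in heterozygous (-1.25 ± 0.15) and Plagl1 at 12.9 and 12.99 CPM in knockout against 44.9 and 44.5 CPM in heterozygous (-1.79 ± 0.09). Igf2, the growth factor gene next to H19, was the increase, at 92.6 and 93.1 CPM in knockout against 60.4 and 57.6 CPM in heterozygous (0.65 ± 0.06).

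Markers of the cell types that the cultures could hold were read beside these groups. Fibroblast and annulus fibrosus markers had 13 of 21 lower and 5 higher, with a median of -0.69 and a summed level of 17535 and 17421 CPM in knockout against 33464 and 32806 CPM in heterozygous. The higher count was 3 without knockout replicate 1, knockout replicate 2 or heterozygous replicate 2. Thy1, a surface marker of fibroblasts, was at 166 and 164 CPM in knockout against 332 and 323 CPM in heterozygous (-0.99 ± 0.03), and Vim, vimentin, did not pass (-0.02). Levels of S100a4 were higher in knockout, at 656 and 655 CPM against 506 and 521 CPM in heterozygous. The same held for Ly6a, at 182 and 165 CPM in knockout against 103 and 113 CPM in heterozygous. The share of these markers in the decreases of matrix genes was not tested. The fibroblast list shares Col1a1, Col1a2, Col3a1, Postn, Dcn, Lum, Fbln1 and Tnxb with the matrix lists, and Scx and Mkx with the skeletal lineage factors. Chondrocyte markers had 5 of 11 lower and 1 higher, with a median of -1.12. Among them Fmod, Col11a1, Comp and Col2a1 also stand on the matrix lists, and Sox9 with the skeletal lineage factors. The chondrocyte list summed to 1133 and 1126 CPM in knockout and 3038 and 2958 CPM in heterozygous. Wild type, at 1192 and 1229 CPM, was close to knockout. Its median against wild type was 0.12 for knockout and 1.11 for heterozygous. Nucleus pulposus and notochord markers had 6 of 14 higher and 6 lower, with a median of 0.32. Krt19, a keratin of notochordal cells, had 86 and 94 counts in knockout and 32 and 13 in heterozygous (1.84 ± 0.28; 2.70 without heterozygous replicate 1). Car3, a carbonic anhydrase of the native nucleus pulposus, was at 0.425 and 0.381 CPM in knockout against 3.92 and 4.34 CPM in heterozygous (-3.35 ± 0.43). Lgals3, a galectin also abundant in macrophages, was at 1008 and 989 CPM in knockout against 383 and 387 CPM in heterozygous (1.37 ± 0.03). Markers of the labelled cell type thus had no common direction.

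Osteoblast and hypertrophy markers had 5 of 10 higher and 3 lower, with a median of 0.35. Alpl was at 28.6 and 29.9 CPM in knockout against 7.14 and 7.45 CPM in heterozygous, and Runx2, a factor of bone formation, at 21.6 and 24.2 CPM in knockout against 34.9 and 30.8 CPM in heterozygous (-0.52 ± 0.09). Adipocyte markers had 6 of 10 higher and 0 lower, with a median of 0.32, and the count was 2 without heterozygous replicate 1. Lpl, lipoprotein lipase, was at 375 and 377 CPM in knockout against 273 and 271 CPM in heterozygous (0.47 ± 0.03). Endothelial markers had 3 of 9 higher and 3 lower, with a median of 1.39 that became -0.15 without knockout replicate 2, at a summed level of 78.8 and 82.1 CPM in knockout against 38.1 and 35.1 CPM in heterozygous, and 1 was lower without knockout replicate 1 or knockout replicate 2. Pericyte markers had 4 of 6 lower and 1 higher, with a median of -0.39, and 0 were higher without knockout replicate 2. Meningeal and arachnoid markers had 6 of 16 higher and 1 lower, with a median of 0.49, and the 43.8% called lay near the 37.5% of all genes. Their summed level was 422 and 414 CPM in knockout against 893 and 897 CPM in heterozygous. The single decrease was Nov, the most abundant of them, at 228 and 227 CPM in knockout against 750.3 and 753 CPM in heterozygous (-1.73 ± 0.03).

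Among markers of neurons and Schwann cells, Sox10 and Ngfr were counted in heterozygous libraries and hardly at all in knockout ones, although the summed level of the list was 345 and 323 CPM in knockout against 350.1 and 348 CPM in heterozygous. Sox10, a factor of Schwann cells and other crest derivatives, had 0 and 2 counts in the knockout libraries and 104 and 85 in the heterozygous. Ngfr, the low-affinity neurotrophin receptor, had 2 and 1 counts in knockout and 235 and 203 in heterozygous. Both were at or near 0 in knockout and clearly counted in both heterozygous libraries. Of the 10 neuron and Schwann cell markers tested, 5 fell and 0 rose, with a median of -0.60, and Erbb3 was among those that fell (-0.996 ± 0.33), but not without knockout replicate 1 or heterozygous replicate 1 (adjusted p 0.196 and 0.0772). Markers of other blood and barrier cells were at low levels. The lymphocyte and neutrophil list had 1 tested gene, Cd4, with 1 and 13 counts in knockout and 50 and 53 in heterozygous (-3.01 ± 0.72; -2.14 without knockout replicate 1 and -5.64 without knockout replicate 2). Of 2 dendritic and mast cell markers Itgax rose (1.06 ± 0.15), of 6 osteoclast markers 1 rose and 2 fell, of 5 muscle markers 1 rose and 0 fell, and of 2 epithelial markers 0 passed. Their part in the differences of other groups was not tested.

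**Figure D4:**
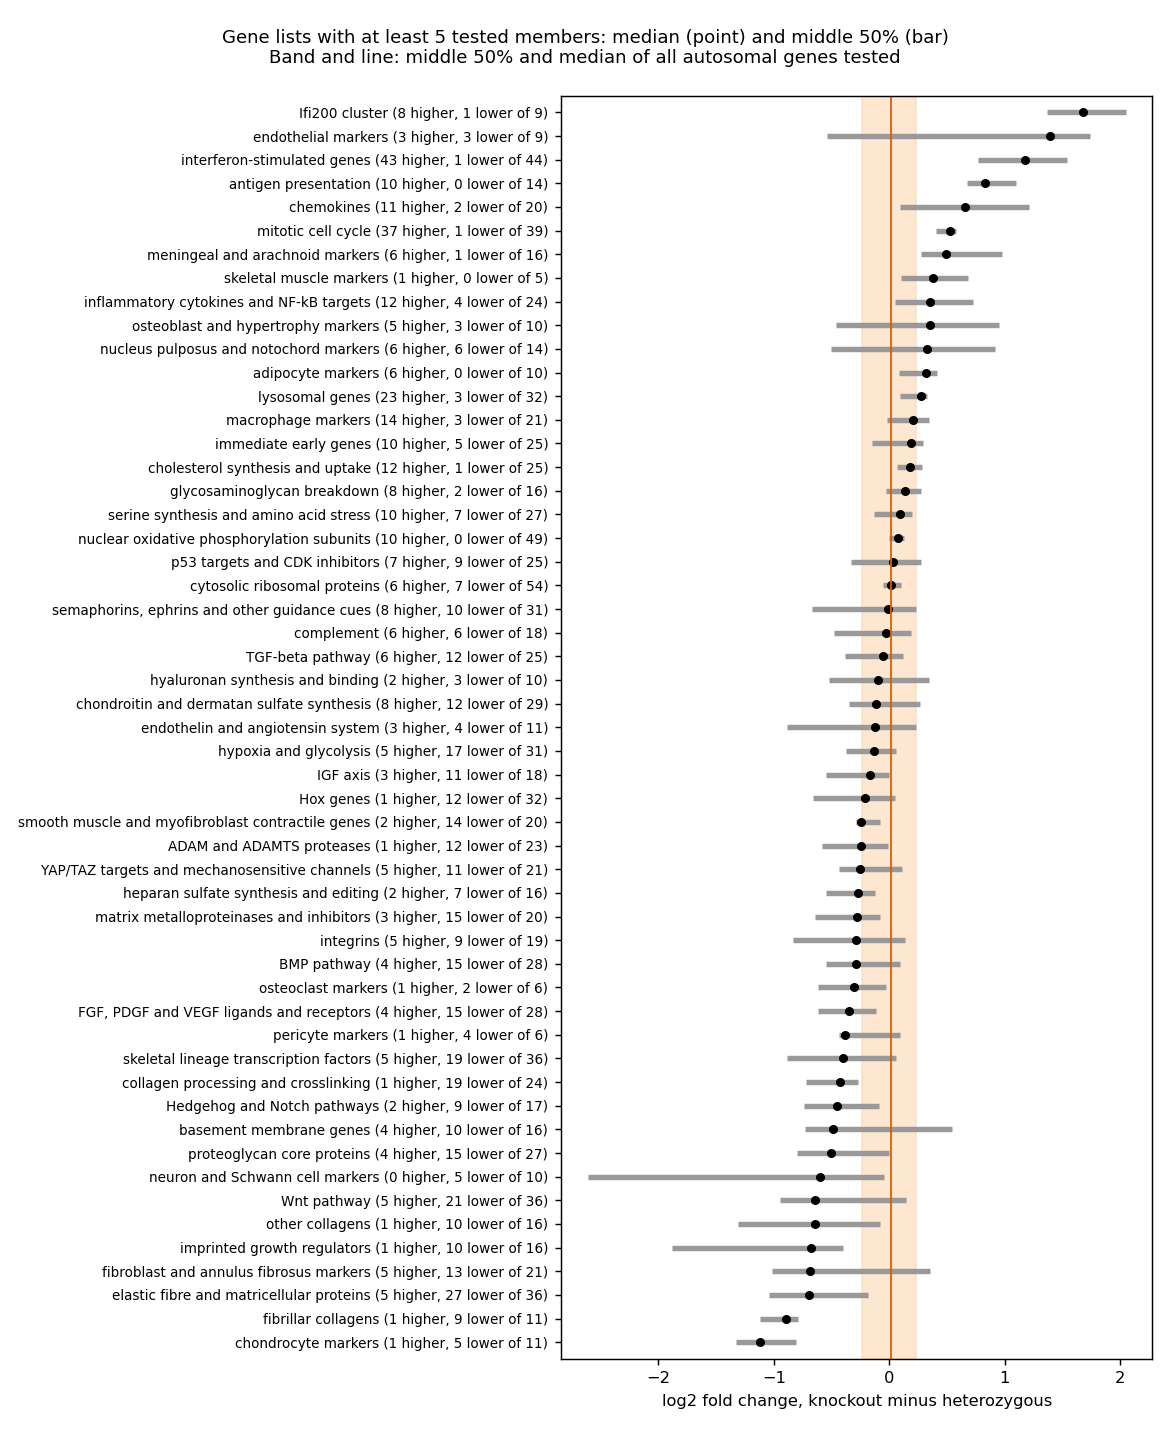
Median (point) and middle 50% (bar) of the log2 fold change, knockout minus heterozygous, of the gene lists with at least 5 tested members, with the counts of members higher and lower; the band and line give the middle 50% and median of all 15125 autosomal genes. The Ifi200 cluster, at 1.68, lies at the upper end and the chondrocyte markers, at -1.12, at the lower end.

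A few genes were counted in heterozygous libraries and absent from knockout ones. With 0 counts in both knockout libraries and at least 30 in each heterozygous library, 3 genes qualified, and 0 genes qualified in the other direction. Ifi202b (chromosome 1, 173962569 to 173982844) had 1022 and 1118 counts in heterozygous and 0 in both knockout and both wild-type libraries, at least 394-fold higher in heterozygous with a floor of 3 counts per library. LOC100044068, on a scaffold without a placed position, had 374 and 373 counts in heterozygous and 0 in the other 4 libraries, at least 138-fold higher. Adamts18, a protease of the ADAMTS family (chromosome 8, 113697123 to 113849343), had 117 and 84 counts in heterozygous, at least 37.4-fold higher, and 14 and 17 in wild type. The first pair of genes was thus counted in heterozygous cells alone among the 3 genotypes. At a minimum of 10 counts, 12 genes were counted in heterozygous and not in knockout libraries, and 5 the other way.

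Called genes were spread over all chromosomes, from 31.4% of tested genes on chromosome 17 to 40.6% on chromosome 1, with 37.6% on chromosome 18, which carries Chsy3. Within 5 megabases of Chsy3, 29 of 59 tested genes passed (49.2%), 14 higher and 15 lower, with a median of -0.05, against 35.7% of 392 genes on the rest of the chromosome. The share with at least a 2-fold called difference was 15.3% near Chsy3 and 7.40% on the rest of the chromosome. These shares are a description and were not tested. The higher genes there included a run of neighbours: Iigp1, an interferon-inducible GTPase (chromosome 18, 60373616 to 60392634), was at 33.6 and 36.4 CPM in knockout against 12.4 and 13.4 CPM in heterozygous (1.44 ± 0.10). Gm4951 was at 12.7 and 13.4 CPM in knockout against 5.31 and 5.57 CPM in heterozygous (1.26 ± 0.16), and F830016B08Rik at 17.5 and 15.9 CPM in knockout against 8.57 and 8.71 CPM in heterozygous (0.95 ± 0.13). Among the lower genes were Fbn2, a fibrillin (103 and 107 CPM in knockout against 149 and 139.7 CPM in heterozygous; -0.46 ± 0.04) and Pdgfrb, a growth factor receptor (339 and 339 CPM in knockout against 446 and 429 CPM in heterozygous; -0.37 ± 0.03). Megf10 was at 0.0303 and 0.235 CPM in knockout against 2.29 and 2.23 CPM in heterozygous (-4.04 ± 0.61; -3.25 without knockout replicate 1 and -6.05 without knockout replicate 2).

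**Figure D5:**
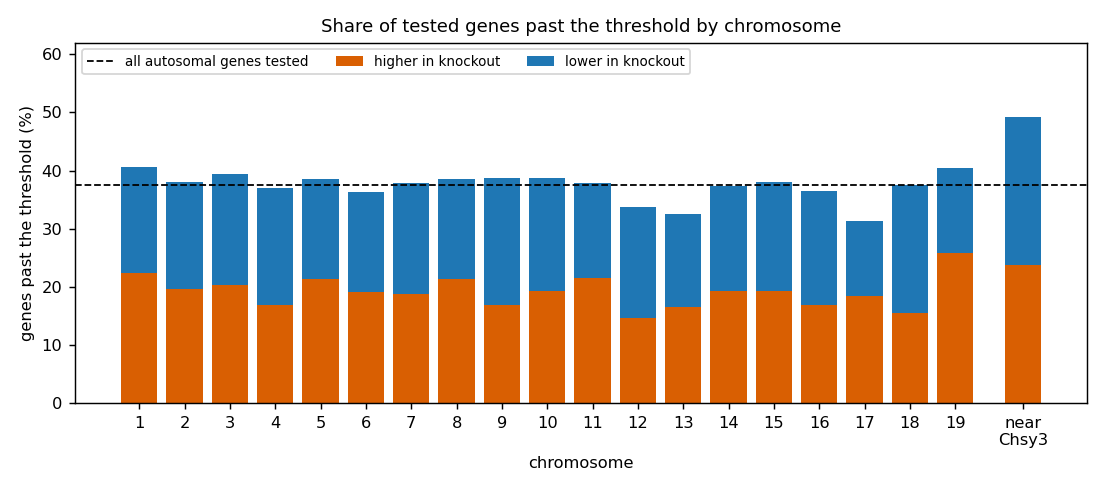
Percent of tested genes past the threshold on each autosome and among the 59 genes within 5 megabases of Chsy3 (stacked bars, higher and lower in knockout), with the share over all autosomal genes, 37.5%, as a dashed line. Shares run from 31.4% to 40.6% on the chromosomes and reach 49.2% near Chsy3.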

How the data were processed

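Total RNA of 6 libraries from cultured mouse cells labelled as nucleus pulposus was compared by Chsy3 genotype, with groups taken from the labels. The deposited table holds the authors' raw counts per gene symbol, since its values are whole and the totals differ between libraries. HISAT2 version 2.0.4 and GRCm38 are named per the submitters' processing notes, while the sources used here give neither counting tool, annotation nor strand setting. Reads of near-identical copies (Ifi200, Oas, Ifit, class I histocompatibility and ribosomal genes), overlapping genes and antisense partners are therefore uncertain. Entries without a gene name numbered 0.

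The test was run in edgeR (version 4.0.16, R version 4.3.3) with TMM factors (0.974 to 1.02), the default filter on low counts by genotype, which left 16061 genes, and 1 robust quasi-likelihood fit of all 6 libraries with 3 residual degrees of freedom. Knockout was compared with heterozygous by a two-sided quasi-likelihood F test, with Benjamini-Hochberg adjustment over the 16061 genes and a threshold of 0.05. Standard errors are the size of the log2 difference divided by the square root of F. The procedure was tested on simulated data of the same design. Totals of 29622117 to 33899611 counts per library put the limit that a count of 0 allows, 3 counts, at 0.0880 to 0.104 CPM, which covers counting error only.

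Genes and the 57 lists were chosen with earlier results of these data known. Named were the 14 largest changes each way of at least 3 log2 CPM without overlap between genotypes, 5 genes of smallest p per list, genes with 0 counts in 1 genotype and at least 30 in each library of the other, and called genes within 5 megabases of Chsy3. Other members named for their role, the exceptions to a list's direction among them, were chosen after their values were seen. Some genes that meet these rules are not reported here. Gene positions and promoters come from RefSeq on GRCm38.p6. The 14 alternatives included other scalings and filters, DESeq2 version 1.42.0, a replicate block and leaving out each library.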

Additional observations from a re-analysis of the deposited data

Results flagged for a closer look

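Genes of the Y chromosome, which the comparison of autosomal genes does not use, were counted in both knockout libraries and in neither heterozygous library. Ddx3y stood at 31.0 ± 0.9998 CPM in knockout (SD, n = 2), Eif2s3y at 20.7 ± 1.35 CPM, Kdm5d at 11.8 ± 1.02 CPM and Uty at 10.2 ± 1.06 CPM, against 0 counts of each in the heterozygous libraries. These levels were at least 312-, 209-, 119- and 103-fold above the limit that a count of 0 allows, taken as 3 counts per library. The wild-type libraries were near the knockout ones, with Ddx3y at 27.3 and 21.5 CPM and Xist at 664 and 654 CPM. In knockout, Xist was counted beside the Y-linked genes as well, at 652 CPM on average. The labels give every library as male, and between knockout and heterozygous the difference in these genes and the genotype cannot be told apart.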

How the results depend on the processing

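Over the 14 alternatives the number of autosomal genes past the threshold was between 4598 and 6091 against 5670, with 4802 in DESeq2 and between 4598 and 5770 when 1 library was left out. Of the 5670 genes, 5 changed sign with library totals. The knockout against heterozygous difference of Chsy3 lay between -1.43 and -0.74 over all alternatives, and its highest adjusted p, 0.0137, came without knockout replicate 2. Changes of sign were counted only for list medians larger in size than their standard deviation over pairs of a knockout and a heterozygous library. Medians nearer to 0 can change sign without being counted. By this rule 4 list medians changed sign. The TGF-beta pathway was at 0.00526 with library totals against -0.06, and the endothelin and angiotensin system at 0.0265 with the stricter filter against -0.12. The p53 targets were at -0.00280 without knockout replicate 1, up to 0.0729 without knockout replicate 2, against 0.04. The endothelial markers were at -0.15 without knockout replicate 2 against 1.39. The cause was not tested. At a minimum of 10 counts in place of 30, 12 genes were counted in heterozygous and not in knockout libraries and 5 the other way, against 3 and 0. The labels do not say that a replicate number marks a shared animal or day, and deviations from the genotype means of libraries with the same number correlated at 0.0222 between knockout and heterozygous, 0.00922 between knockout and wild type and -0.0246 between heterozygous and wild type. With the replicate number as a block, 5634 genes passed, 5591 of them among the 5670. Low counts limit the precision of single genes: in the lowest quartile of genes by level the median standard error was 0.62, against 0.05 in the highest.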
